A study of Mus musculus with 15 samples.

Results

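Ribosome biogenesis and RNA polymerase I are represented here by 42 mouse genes, taken from a list of symbols that was drawn up with earlier results of these data known. The rule itself uses no measured value. Of the 42, 31 stood in the authors' table under their present symbol and 11 under an older one (Nop2 as Nol1, Nop56 as Nol5a, Nop58 as Nol5, Nhp2 as Nola2, Polr1c as Rpo1-1 and others). All 42 were found and all 42 passed the filter on dim probes, among 21531 genes with a symbol and 19335 genes tested. Their RNA was measured on 15 one-colour Agilent arrays of FVB/N mouse liver in 4 groups. Every mouse carried LAP-tTA, in which a liver-specific promoter drives a transactivator that doxycycline switches off, and all were fed doxycycline chow at 200 mg/kg until over 8 weeks of age. The 3 control livers carried LAP-tTA alone, and no time off doxycycline is given for them. The other arrays came from LAP-tTA x TRE-MYC double transgenic mice, in which removing the chow switches the MYC transgene on. The 4 pre-tumor samples were liver tissue without tumor, from mice 4 to 5 weeks off the drug. The 4 tumor samples were nodules taken 8 to 9 weeks after removal. The 4 regression samples were tumor tissue from mice that had been 8 to 9 weeks off the drug and were then fed it again for 72 h. Nothing in the labels says that each array is a different animal, so the p-values measure the spread between these samples.

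Ribosomes are made mainly in the nucleolus. RNA polymerase I copies the ribosomal DNA into 1 long precursor, small nucleolar particles guide its chemical modification and cleavage, and large sets of assembly factors fold the pieces with ribosomal proteins into a small and a large subunit. MYC is known to raise the genes of this pathway through all 3 RNA polymerases, in part by binding with MAX to the E-box CACGTG near gene starts. In resting liver the demand for new ribosomes is low, and it rises when hepatocytes grow and divide.

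The promoters of the members that hold this E-box are shown because MYC binds that sequence. RefSeq windows (GRCm38.p6, 250 bases before to 50 bases after a gene's start) were given for 36 of the 42 members, and not for Npm1, Fbl, Rrp12, Bop1, Rrs1 and Gnl2. CACGTG, which reads the same on both strands, lay in the window of 6 of the 36 genes (16.7%), against 10% of the 14383 tested genes with a window. The 6 were Utp20, Wdr43, Imp4 and Tsr1 of the small subunit and Pes1 and Nop2 of the large subunit. The related sequence CACGCG, searched on both strands as CACGCG or CGCGTG, lay in 11 of the 36 (30.6%) against 15.7%. Matches of both kinds may share bases. Median GC content was 57.8% in the members' windows and 58.0% in those of all genes tested. The 4 E-box windows whose genes had the lowest adjusted p between tumor and control follow, with CACGTG in capitals. They lie at chr11:3963725-3964024 on the plus strand (Pes1), chr10:88826765-88827064 on the minus strand (Utp20), chr6:125131633-125131932 on the plus strand (Nop2) and chr17:71615965-71616264 on the plus strand (Wdr43).
Pes1: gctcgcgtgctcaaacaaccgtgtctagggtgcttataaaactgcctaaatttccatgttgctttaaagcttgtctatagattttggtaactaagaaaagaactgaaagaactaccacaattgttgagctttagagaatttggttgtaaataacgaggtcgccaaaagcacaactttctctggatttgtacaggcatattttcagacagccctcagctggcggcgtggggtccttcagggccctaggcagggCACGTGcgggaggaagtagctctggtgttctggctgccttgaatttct
Utp20: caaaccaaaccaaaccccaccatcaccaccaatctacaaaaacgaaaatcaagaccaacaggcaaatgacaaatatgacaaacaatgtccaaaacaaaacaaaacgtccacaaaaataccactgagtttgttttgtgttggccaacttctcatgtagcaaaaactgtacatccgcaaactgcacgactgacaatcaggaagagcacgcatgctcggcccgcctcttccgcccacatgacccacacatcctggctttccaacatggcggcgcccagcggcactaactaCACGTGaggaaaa
Nop2: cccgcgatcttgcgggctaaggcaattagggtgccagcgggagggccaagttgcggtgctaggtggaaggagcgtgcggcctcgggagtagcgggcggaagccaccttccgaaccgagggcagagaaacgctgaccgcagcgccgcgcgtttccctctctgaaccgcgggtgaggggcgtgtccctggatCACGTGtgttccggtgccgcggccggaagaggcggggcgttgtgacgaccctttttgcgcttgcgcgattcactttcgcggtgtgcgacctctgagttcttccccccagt
Wdr43: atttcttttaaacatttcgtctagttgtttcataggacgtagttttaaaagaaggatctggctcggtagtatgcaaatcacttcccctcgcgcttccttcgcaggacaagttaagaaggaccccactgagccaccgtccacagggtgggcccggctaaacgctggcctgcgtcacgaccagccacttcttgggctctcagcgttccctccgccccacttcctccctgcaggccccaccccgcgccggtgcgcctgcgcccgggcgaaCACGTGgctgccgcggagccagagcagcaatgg
Counted from the gene's start, the motif began at base 2 in Pes1, 37 in Utp20, −60 in Nop2 and 17 in Wdr43. These 4 genes were picked by their p in tumor against control, and all were higher in tumor, as given below by role. Of the E-box genes not printed, Imp4 was higher in tumor (1.12) and Tsr1 was not called (−0.45 on the probe used). A match in these letters is a description of the window and not evidence of binding, which was not measured.

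Levels are given as log2 signal relative to the array's 75th percentile, so a difference of 1 is a 2-fold change on the array's scale, and they are compared within a gene and not between genes. Between 46.4% (tumor 3) and 90.8% (pre-tumor 4) of spots were well above background, and precision is limited by how few arrays each group has. The arrays control 1, pre-tumor 1, pre-tumor 4 and tumor 4 had the highest signal of the E1A spike-in probes (5.08 to 6.34 on the log2 scale, against at most 3.93 on the others). These E1A signals are given before the array's 75th percentile was subtracted. Relative to it, pre-tumor 1 stood at −1.88 and tumor 3, not among the 4, at −1.87. Correlations between arrays of a group, across genes, ran from 0.837 to 0.97. One mouse Myc probe, A_52_P108346, read −0.23, −0.94 and −1.63 on the control arrays, 2.49, 0.09, 1.72 and 0.20 on pre-tumor, 4.08, 3.66, 4.81 and 4.35 on tumor and −0.56, −0.24, −0.10 and −0.82 on regression arrays. Its rise in tumor against control was 5.16 ± 0.54 (SE, adjusted p = 7.74e-06) and its fall in regression against tumor −4.66 ± 0.50 (adjusted p = 2.78e-05). The other Myc probes (A_51_P102096 and A_52_P278549) stood at −1.18 ± 0.45 and −1.10 ± 0.47 in tumor against control and were not called, and A_51_P102096 rose in regression against tumor (1.64 ± 0.41, adjusted p = 0.0126). Which probe reads the transgene's RNA is not given in the sources used here. Adjusted p-values are from limma's moderated test, with the Benjamini-Hochberg method applied across the 19335 genes, and a gene counts as called (risen or fallen) at an adjusted p under 0.05.

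Array by array, the 42 genes separated the tumors from every other sample. After each gene's mean over the 15 arrays was subtracted, the median of the members was 1.33, 1.14, 1.03 and 1.53 on the tumor arrays. It was −0.15, −0.37 and −0.78 on control, −0.24, −0.40, 0.11 and −0.80 on pre-tumor and −0.28, −0.47, −0.84 and −0.70 on regression arrays. The tumor arrays lay above all 11 others, and pre-tumor 3 was the highest array outside the tumors. On tumor 4, 41 of the 42 genes stood above their own mean, and on tumor 3, 33 did. On regression 2, 2 of 42 did, and on pre-tumor 3, 26.

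**Figure D1:**
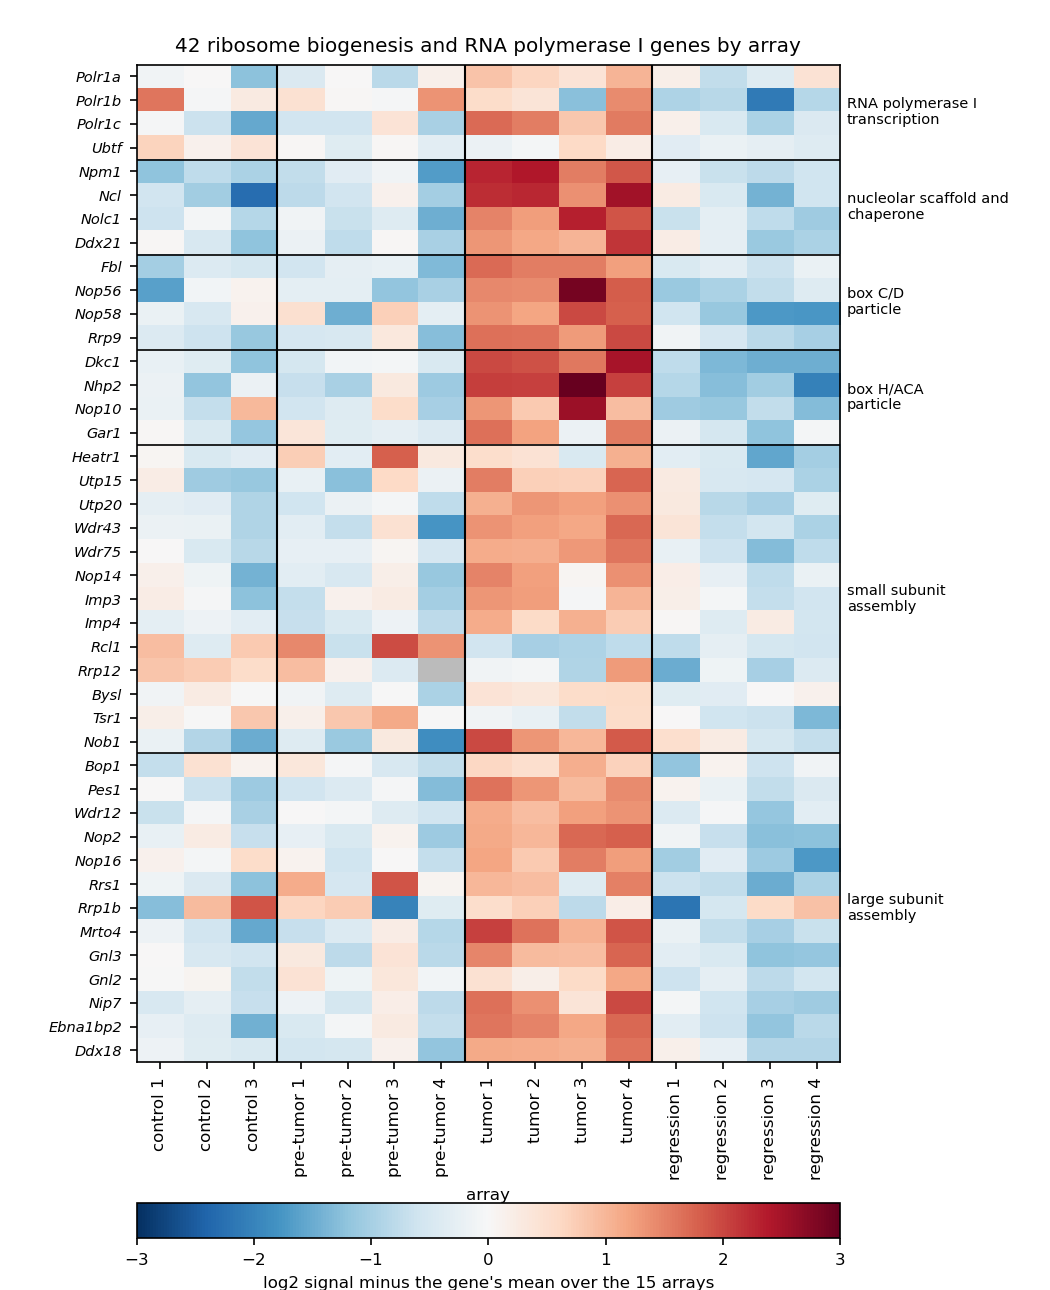
Each row is 1 of the 42 genes, grouped by role, and each column 1 array. Colour gives the log2 signal minus the gene's mean over the 15 arrays (red above, blue below, grey not measured), and the 4 tumor columns are red in most rows, with Rcl1, Rrp12 and Tsr1 among the rows that are not.

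**Figure D2:**
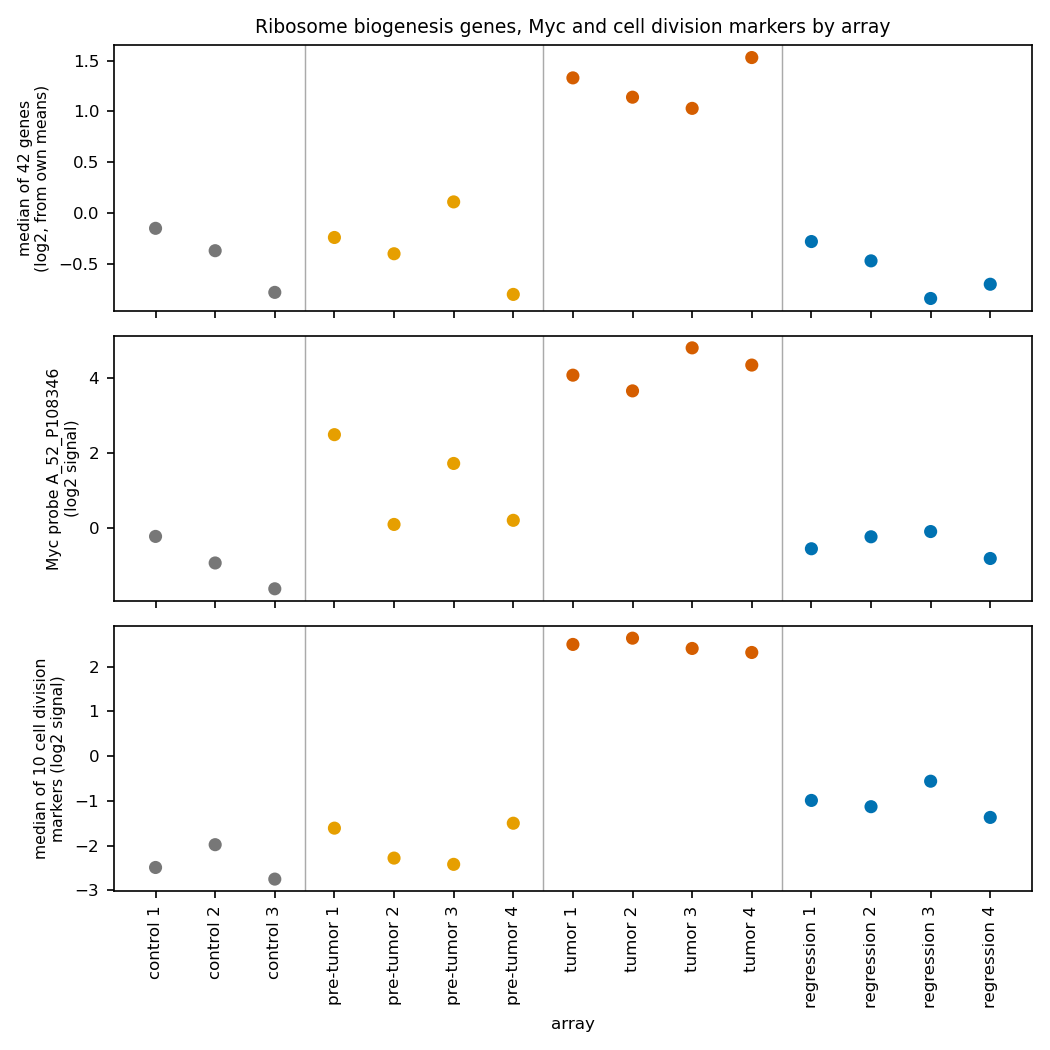
For each array the panels give the median deviation of the 42 genes from their own means, the log2 signal of Myc probe A_52_P108346 and the median log2 signal of 10 cell division markers. The tumor arrays are highest in all 3 panels, with member medians from 1.03 to 1.53, while pre-tumor 1 and pre-tumor 3 have a Myc signal of 2.49 and 1.72 with member medians of −0.24 and 0.11.

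In tumor nodules against control liver, 27 of the 42 genes rose, 0 fell and 15 were not called. Of all genes tested 9.36% rose and 7% fell. The median difference of the members was 1.67 on the log2 scale, against −0.18 for all genes. In 30 of the 42 every tumor array lay above every control array, against 13.7% of all genes, and in 1 (Rcl1) every tumor array lay below, against 11.9%. At an unadjusted p under 0.05, 1 member (Rcl1) was lower, against 14% of all genes. Within the 3 slides that held both groups the members' median difference was 1.91, 1.18 and 1.90. All 27 kept their sign over the 27 alternative settings tried, and 18 stayed called under every one of them. The other calls held in 18 (Nop14), 19 (Gar1), 20 (Imp4), 23 (Nop58, Utp15), 25 (Utp20, Wdr43, Nop2) and 26 (Dkc1) of the 27.

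Among the genes of RNA polymerase I transcription, 1 of 4 rose. Polr1c, a subunit shared by RNA polymerases I and III, read 0.54, −0.06 and −0.94 on control, 0.01, 0.01, 1.00 and −0.38 on pre-tumor, 2.27, 2.12, 1.40 and 2.13 on tumor and 0.74, 0.14, −0.36 and 0.15 on regression arrays. The tumor arrays lay above all others, and the other groups overlapped. Polr1c was 4.39-fold higher in tumor than in control (2.13 ± 0.43, adjusted p = 0.00226). Polr1a, the largest catalytic subunit, read −1.57, −1.46 and −2.70 on control arrays (2 of the 3 well above background), −1.89, −1.46, −2.27 and −1.30 on pre-tumor, −0.60, −0.82, −1.05 and −0.43 on tumor and −1.29, −2.20, −1.86 and −1.04 on regression arrays. Its difference of 1.18 ± 0.40 was not called (adjusted p = 0.0543), although no tumor array overlapped a control array. A dimmer Polr1a probe was called higher (2.21 ± 0.42, adjusted p = 0.00167). Polr1b, the other catalytic-core subunit, differed by −0.33 ± 0.59 (adjusted p = 0.769). Its signal was well above background on 3 of 4 tumor arrays. Ubtf, which binds ribosomal DNA and keeps it open for the polymerase, read 1.62, 1.09 and 1.36 on control, 0.98, 0.59, 0.98 and 0.64 on pre-tumor, 0.78, 0.89, 1.56 and 1.18 on tumor and 0.62, 0.75, 0.69 and 0.56 on regression arrays. Tumor and control overlapped for Ubtf (−0.25 ± 0.29, adjusted p = 0.63). The other Ubtf probe was not called either, and read 1, −0.22 and 0.38 on control and 0.77, 0.67, 1.46 and 0.97 on tumor arrays.

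The 4 nucleolar scaffold and chaperone genes all rose. Npm1, nucleophosmin, the abundant chaperone of the nucleolus, read 3.64, 4.09 and 3.91 on control, 4.12, 4.52, 4.76 and 3.17 on pre-tumor, 7.14, 7.26, 6.38 and 6.71 on tumor and 4.60, 4.19, 4.06 and 4.26 on regression arrays. Its tumor arrays stood well clear of the rest. The difference was 2.99 ± 0.38, or 7.95-fold (adjusted p = 4.26e-05). Ncl, nucleolin, an RNA-binding protein of the precursor, read 2.51, 2.03 and 0.80 on control, 2.30, 2.51, 3.20 and 2.05 on pre-tumor, 5.29, 5.34, 4.46 and 5.59 on tumor and 3.31, 2.61, 1.66 and 2.47 on regression arrays. No other sample reached the lowest tumor array. With 3.39 ± 0.48 Ncl had the largest difference among the 42 on the probes used (adjusted p = 0.000112). All 4 Ncl probes were called higher, with differences that spread over 2.04. Nolc1, which carries small nucleolar particles, rose by 2.25 ± 0.39 (adjusted p = 0.000657), and the helicase Ddx21 by 1.96 ± 0.43 (adjusted p = 0.00475).

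The box C/D particle methylates the ribose of ribosomal RNA, and its 4 genes all rose. Fbl, the methyltransferase fibrillarin, read 3.21, 3.82 and 3.69 on control, 3.65, 3.95, 4.01 and 2.89 on pre-tumor, 5.92, 5.76, 5.76 and 5.44 on tumor and 3.76, 3.92, 3.59 and 4.01 on regression arrays. Every tumor array exceeded every other array by more than the whole range of the control arrays. Fbl rose by 2.15 ± 0.33 (4.43-fold, adjusted p = 0.000247). Rrp9, a protein of the particle that guides the first cleavages of the precursor, read 0.10, −0.11 and −0.62 on control, 0.00, 0.03, 0.83 and −0.78 on pre-tumor, 2.17, 2.14, 1.79 and 2.49 on tumor and 0.39, 0.01, −0.31 and −0.50 on regression arrays. The tumors again lay above the other 3 groups, which overlapped. Rrp9 rose by 2.36 ± 0.38 (adjusted p = 0.00042), and the core proteins Nop56 and Nop58 by 2.42 ± 0.47 (adjusted p = 0.00172) and 1.77 ± 0.48 (adjusted p = 0.017).

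The box H/ACA particle converts uridine to pseudouridine, and 3 of its 4 genes rose. Dkc1, the pseudouridine synthase dyskerin, read −2.67, −2.83 and −3.67 on control (2 of 3 well above background), −2.98, −2.53, −2.51 and −2.91 on pre-tumor, −0.48, −0.55, −0.88 and 0.02 on tumor and −3.21, −3.80, −3.91 and −3.91 on regression arrays (2 of 4 well above background). The dim arrays make the control and regression levels of Dkc1 upper bounds in part, and the tumor arrays did not overlap them. Dkc1 rose by 2.58 ± 0.34 (adjusted p = 6.57e-05), and its other probe by 2.80 ± 0.47. Under normexp background correction, which here added an offset of 50, the value for Dkc1, tumor against control was 0.71 (adjusted p = 0.12). This was the only alternative that ended the call. Nhp2, which binds the guide RNA, read 1.59, 0.57 and 1.58 on control, 1.06, 0.78, 2.06 and 0.66 on pre-tumor, 3.84, 3.80, 4.81 and 3.82 on tumor and 0.91, 0.48, 0.72 and −0.27 on regression arrays. Tumor 3 was the highest array, about 1 above the other tumors, which lay close together. Nhp2 rose by 2.82 ± 0.44 (7.06-fold, adjusted p = 0.000276). Gar1 rose by 1.59 ± 0.46 (adjusted p = 0.0278), with tumor 3 at −0.09 below control 1 at 0.13. Nop10, the smallest protein of the particle, differed by 1.38 ± 0.50 and was not called (adjusted p = 0.072).

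Of the 13 small subunit assembly genes 7 rose and 6 were not called, with a median difference of 1.24. Nob1, the nuclease that makes the mature end of the small subunit RNA, read 1.67, 1.00 and 0.38 on control, 1.5, 0.75, 2.17 and 0.01 on pre-tumor, 3.86, 3.19, 2.86 and 3.70 on tumor and 2.38, 2.12, 1.35 and 1.15 on regression arrays. The lowest tumor array lay above the highest of any other group. Nob1 rose by 2.38 ± 0.50 (5.21-fold, adjusted p = 0.00349). Utp20 of the small subunit processome, whose E-box window is printed above, read −1.23, −1.31 and −1.85 on control, −1.57, −1.13, −1.01 and −1.72 on pre-tumor, 0.11, 0.37, 0.28 and 0.42 on tumor and −0.66, −1.78, −1.95 and −1.33 on regression arrays. The 4 tumors spanned less than the arrays of any other group. Utp20 rose by 1.76 ± 0.35 (adjusted p = 0.00215) on this probe. Its other probe, well above background on 6 of 15 arrays, gave −0.82 ± 0.46 and was not called, and the mean of both (Utp20, tumor against control) was 0.47 with an adjusted p of 0.531. Wdr75 read 0.01, −0.46 and −0.83 on control, −0.25, −0.25, 0.06 and −0.50 on pre-tumor, 1.12, 1.08, 1.30 and 1.59 on tumor and −0.24, −0.63, −1.31 and −0.76 on regression arrays. It belongs to the complex that binds the precursor first, together with Wdr43, Utp15 and Heatr1. Wdr75 rose by 1.70 ± 0.33 (adjusted p = 0.00183), Wdr43 by 1.79 ± 0.46 (adjusted p = 0.0137) and Utp15 by 1.82 ± 0.48 (adjusted p = 0.0156, 2 of 3 control arrays well above background). The other Wdr43 probe was not called. Heatr1 differed by 0.64 ± 0.49 (adjusted p = 0.427). Nop14 and Imp4 rose by 1.5 ± 0.46 (adjusted p = 0.0356) and 1.12 ± 0.31 (adjusted p = 0.0184). Imp3, which sits beside Imp4, differed by 1.24 ± 0.46 (adjusted p = 0.0853). The late factors Bysl, Tsr1 and Rrp12, which act on the particle before and during its export, differed by 0.43 ± 0.30, −0.45 ± 0.42 and −0.65 ± 0.50, with adjusted p-values from 0.381 to 0.525. The other Tsr1 probe was not called either but had the opposite sign. It read 0.31, −0.9 and −1.35 on control and −0.07, −0.18, −0.67 and 0.93 on tumor arrays.

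Rcl1, an RNA cyclase-like protein of the same processome, had the lowest difference of its list between tumor and control. On the probes used, 10 of the 13 were positive there and Rcl1, Rrp12 and Tsr1 negative, none of these 3 called. Rcl1 read 4.22, 2.91 and 4.07 on control, 4.75, 2.63, 5.25 and 4.66 on pre-tumor, 2.72, 2.30, 2.36 and 2.53 on tumor and 2.53, 3.03, 2.78 and 2.73 on regression arrays. The tumor and regression arrays were uniformly low, and the livers ranged widely, with control 2 and pre-tumor 2 near the tumors. The difference between tumor and control was −1.26 ± 0.51 (adjusted p = 0.111). Without the array pre-tumor 2 the SE was smaller and the same difference was called (Rcl1, tumor against control: −1.26 ± 0.36, adjusted p = 0.0251). The other Rcl1 probe gave −1.27 ± 0.66 and was not called.

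Of the 13 large subunit assembly genes 8 rose and 5 were not called, with a median difference of 1.61. Mrto4, a placeholder that is later exchanged for a stalk protein, read 2.07, 1.65 and 0.68 on control, 1.53, 1.81, 2.45 and 1.37 on pre-tumor, 4.28, 3.85, 3.26 and 4.10 on tumor and 2.01, 1.48, 1.22 and 1.55 on regression arrays. It rose by 2.40 ± 0.40 (5.29-fold, adjusted p = 0.000517), with no tumor array overlapping another group. Ebna1bp2, a scaffold of early large subunit particles, read 2.24, 2.10 and 1.04 on control, 2.03, 2.43, 2.75 and 1.77 on pre-tumor, 4.09, 3.98, 3.63 and 4.21 on tumor and 2.17, 1.87, 1.31 and 1.67 on regression arrays. The groups other than tumor shared a range, and Ebna1bp2 rose by 2.18 ± 0.37 (adjusted p = 0.000589). The other Ebna1bp2 probe was not called in any of the 5 comparisons. It read −0.06, 0.19 and −1.61 on control and 1.62, 1.28, −1.52 and 1.51 on tumor arrays. Pes1 read 1.92, 1.26 and 0.81 on control, 1.33, 1.48, 1.85 and 0.59 on pre-tumor, 3.52, 3.21, 2.84 and 3.30 on tumor and 1.99, 1.69, 1.15 and 1.47 on regression arrays. Pes1, Bop1 and Wdr12 form 1 complex of the large subunit pathway. The other Pes1 probe, well above background on 8 of 15 arrays, gave 0.94 ± 0.48 and was not called. Pes1 rose by 1.89 ± 0.37 (adjusted p = 0.00205) and Wdr12 by 1.71 ± 0.34 (adjusted p = 0.0022), whereas Bop1 differed by 0.78 ± 0.40 (adjusted p = 0.216) without overlap between the groups. Nop2, an RNA methyltransferase, rose by 1.65 ± 0.40 (adjusted p = 0.00889), and Nip7, Gnl3 (nucleostemin) and the helicase Ddx18 by 1.55 to 1.82. Nop16, Rrs1 and Gnl2 differed by 0.98 ± 0.37, 1.36 ± 0.55 and 0.81 ± 0.33, with adjusted p-values of 0.0842, 0.11 and 0.114.

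For Rrp1b the probes disagreed. The probe with the highest mean, which stands for the gene in every count here, read −2.00, 0.23 and 1.17 on control, −0.08, 0.04, −2.72 and −1.08 on pre-tumor, −0.19, −0.02, −1.51 and −0.54 on tumor and −2.93, −1.26, −0.15 and 0.16 on regression arrays. Its arrays scattered within every group, and it differed by −0.36 ± 0.84 (adjusted p = 0.825). The other 3 Rrp1b probes were each called higher in tumor, by 2.54 ± 0.48, 2.69 ± 0.52 and 2.44 ± 0.35, and each called lower in regression against tumor. Over the 21 members with at least 2 passing probes, no member had probes called in opposite directions in any of the 5 comparisons. In tumor against control 8 of the 21 had all their probes called, 7 had some and 6 none.

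**Figure D3:**
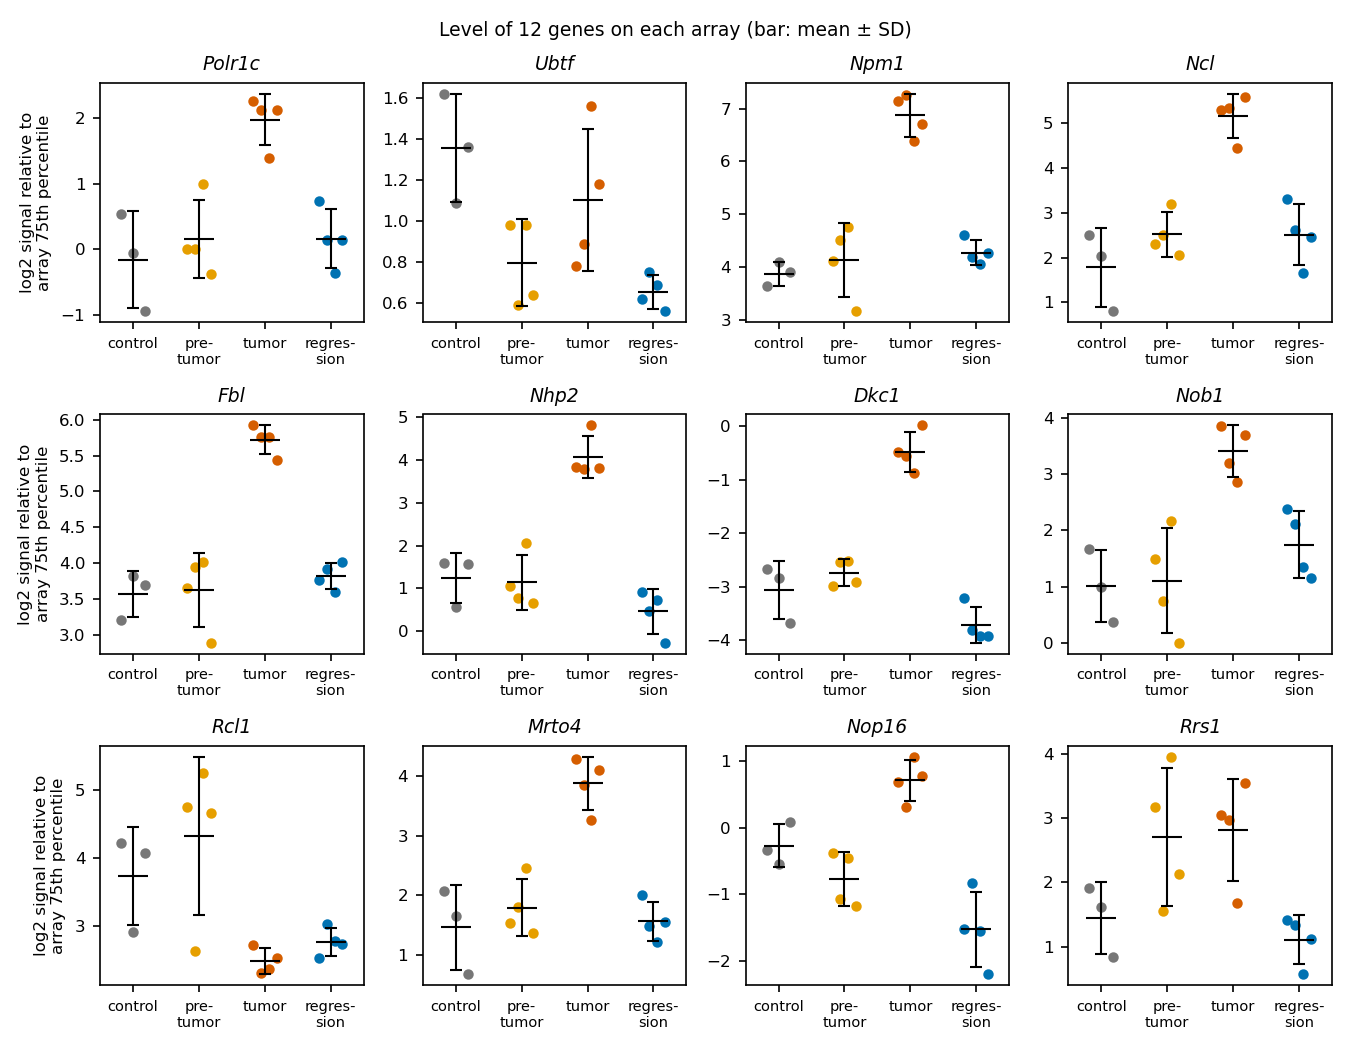
Each panel gives the log2 signal of 1 gene on each array, relative to the array's 75th percentile, by group, with the mean and SD as bars (3 control arrays and 4 of each other group). For Npm1 the tumors lie between 6.38 and 7.26 and all other arrays between 3.17 and 4.76. Rcl1 and Ubtf, on the probes plotted, show no rise in tumor over control.

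The rest of the pathway was read from lists fixed by role, and none of their genes fell in tumor against control. Over all genes tested, 9.36% rose and 7% fell. Among other RNA polymerase I subunits and factors 7 of 13 tested rose (of 16 listed), led by Polr2e (2.61 ± 0.38), Polr2f (2.02 ± 0.35) and Polr1d (1.55 ± 0.34), the first pair being subunits of all 3 polymerases. Of 19 RNA polymerase III genes 3 rose, which were Gtf3a (2.26 ± 0.40), Polr3g (1.56 ± 0.37) and Polr3c (1.30 ± 0.40). The factors that assemble small nucleolar particles rose in 6 of 9 cases, with the ATPases Ruvbl2 (2.86 ± 0.33) and Ruvbl1 (2.49 ± 0.32) and the core protein Snu13 (2.40 ± 0.41) at the front. Ruvbl2 read 0.88, 0.58 and −0.24 on control, 0.33, 0.55, 0.54 and 0.08 on pre-tumor, 3.49, 3.27, 2.84 and 3.49 on tumor and 0.66, 0.71, 0.23 and 0.48 on regression arrays, with the tumors far above the rest. Further small subunit factors rose in 15 of 39 cases (Rrp7a 1.93 ± 0.34, Utp11 1.60 ± 0.28, Noc4l 2.43 ± 0.44) and further large subunit factors in 14 of 47 (Las1l 1.83 ± 0.31, Npm3 2.05 ± 0.35, Mybbp1a 1.95 ± 0.34). The exosome, which trims the precursor, rose in 8 of 13 cases (Exosc7 2.56 ± 0.41, Exosc8 2.23 ± 0.41, Exosc2 1.38 ± 0.31). Of 75 cytosolic ribosomal protein genes 57 rose, with Rpl14 (3.58 ± 0.42), Rpl27a (2.09 ± 0.30) and Rpl31 (2.33 ± 0.34) at the lowest adjusted p. The median difference of the lists ran from 0.38 for RNA polymerase III to 1.60 for ribosomal proteins.

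**Figure D4:**
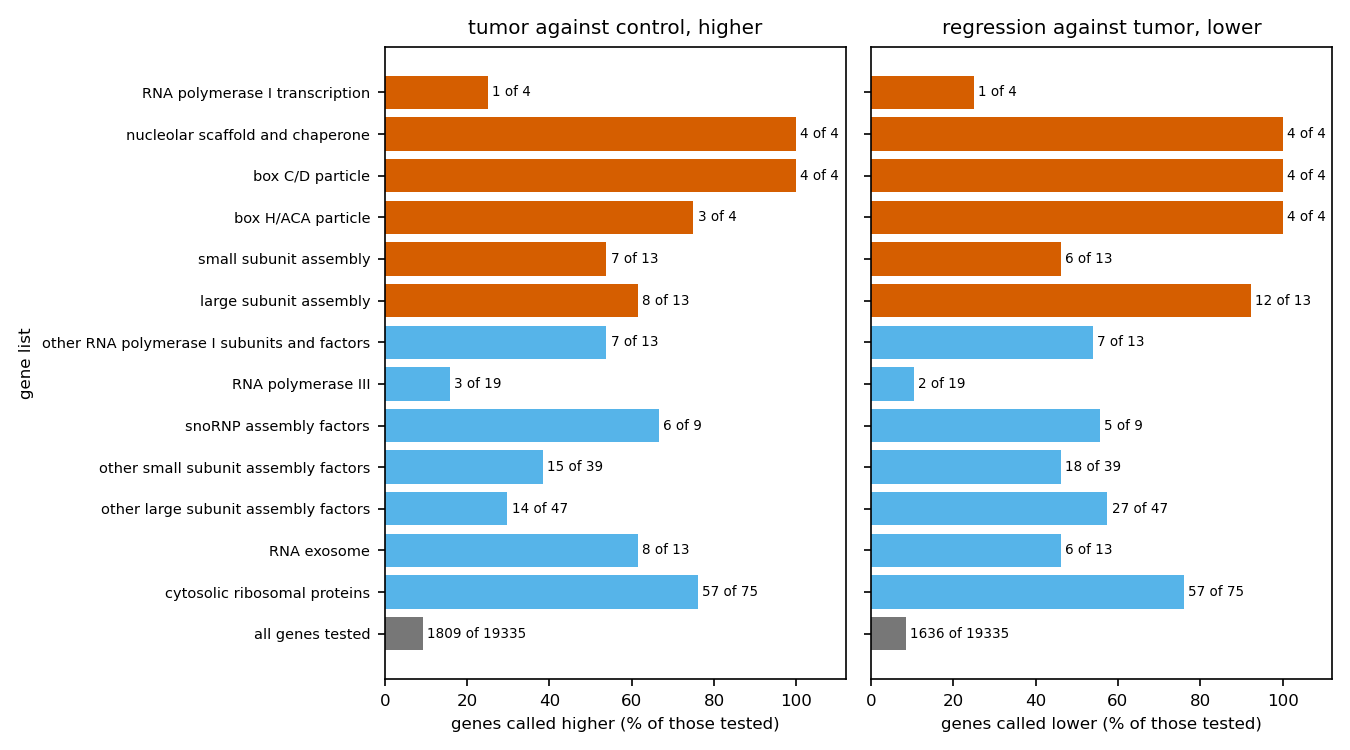
Bars give the share of tested genes in each list that was called higher in tumor against control (left) or lower in regression against tumor (right), with the counts beside them, for the 6 roles of the 42 genes (orange), 7 further pathway lists (blue) and all genes tested (grey). The roles range from 1 of 4 for RNA polymerase I transcription to 4 of 4, and all genes tested stand at 9.36% and 8.46%.

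Cell type markers moved with the same groups. All 10 cell division markers rose in tumor against control and fell in regression against tumor, and 3 were higher in regression than in control. Their summed level, as linear signal in units of the array's 75th percentile, was 4.25 to 8.59 on control, 6.57 to 9.59 on pre-tumor, 116 to 187 on tumor and 11.2 to 12.6 on regression arrays. Cdk1 was not well above background on any control array, nor Bub1 on any regression array. Of 8 measured hepatocyte markers 7 fell in tumor, with sums of 1430 to 1890 on control, 1080 to 3470 on pre-tumor, 202 to 639 on tumor and 513 to 2130 on regression arrays (regression 2, the lowest, lacks a usable Alb spot). All 8 were well above background in at least 2 tumor arrays, so the labelled liver origin is seen in each group. Macrophage markers summed to 21.7 to 43.7 on control, 20.9 to 52.9 on pre-tumor, 44.1 to 74.9 on tumor and 170 to 348 on regression arrays. The sums for stellate cells and fibroblasts were 34.8 to 86, 41.5 to 94.1, 94.6 to 202 and 142 to 450 in that order, with Lum not above background on any tumor array. Endothelium gave 5.99 to 11.7, 10.2 to 17.9, 3.3 to 4.55 and 7.48 to 13.7, and T, NK and B cells gave 3.87 to 6.23, 3.2 to 5.54, 3.64 to 5.64 and 7.65 to 10.7. These sums weigh the brightest markers most, and lists could split. Of 8 macrophage markers 3 rose and 2 fell in tumor against control (9.36% and 7% of all genes). In regression against control 6 were higher and 1 lower (5.03% and 3.31%). Of 8 stellate cell and fibroblast markers 3 were higher and 2 lower in tumor against pre-tumor (10% and 9.1%). Bile duct markers ranged from 2.2 to 4.76 over all arrays, with Spp1 not above background in tumor, and erythroid markers from 23.8 to 569. The part of these cells in the members' differences was not tested, and in these tissue samples a change in the number of cells of a type and a change in RNA per cell cannot be told apart.

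In regression, 72 h after the drug returned, 31 of the 42 genes were lower than in tumor, 0 were higher and 11 were not called. Of all genes tested 8.46% fell and 8.36% rose. The median difference was −1.72, against −0.13 for all genes. In 32 of 42 every regression array lay below every tumor array (13.1% of all genes) and in 0 above (10.8%). At an unadjusted p under 0.05, 0 members were higher, against 12.8% of all genes. Within the 4 slides the members' median difference was −1.33, −1.62, −1.76 and −2.49. Of the 31 genes 22 stayed called under all 27 alternatives, and all 31 kept their sign. The other calls held in 18 (Bop1), 19 (Utp15), 20 (Imp4, Rrs1), 21 (Gar1), 22 (Nob1), 23 (Gnl2), 25 (Utp20) and 26 (Dkc1) of the 27. This comparison shares its tumor arrays with the one above.

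By role, 1 of 4 polymerase I genes fell, 4 of 4 scaffold genes, 4 of 4 of the box C/D particle, 4 of 4 of the box H/ACA particle, 6 of 13 of the small subunit and 12 of 13 of the large subunit. The dimmer Polr1a probe and the other Tsr1 probe were called lower, unlike the probes used. That Polr1a probe read 0.24, −0.31, 0.59 and −0.5 on tumor and −2.99, −2.54, −2.64 and −3.24 on regression arrays. The Tsr1 probe read −0.07, −0.18, −0.67 and 0.93 on tumor and −0.5, −1.42, −2.43 and −2.39 on regression arrays. Over the 21 members with several passing probes, 9 had all their probes called, 9 some and 3 none. Nhp2 of the H/ACA particle was lower by −3.61 ± 0.40 on the log2 scale (12.2-fold, adjusted p = 3.54e-05). Dkc1 differed by −3.23 ± 0.32 (adjusted p = 1.15e-05), with 2 of 4 regression arrays well above background, and under normexp Dkc1, regression against tumor stood at −0.28 (adjusted p = 0.452). Nop10 of the same particle stood at −2.46 ± 0.46 (adjusted p = 0.00163). In the values of Nhp2 given above, the regression arrays reached at most 0.91 and no tumor array lay under 3.80. In the box C/D particle Nop58 fell by 2.88 (SE 0.44, adjusted p = 0.000394) and Nop56 by 2.68 (SE 0.43, adjusted p = 0.000581). Npm1 stood at −2.60 ± 0.35 and Ncl at −2.65 ± 0.44, and of the polymerase genes Polr1c fell by 1.82 (SE 0.40). Among large subunit genes Mrto4, Nop2, Nop16 and Ebna1bp2 differed by −2.31 to −2.23, each with a 0.34 to 0.37 SE. Bop1 (−1.18 ± 0.37, adjusted p = 0.0387), Gnl2 (−1.15 ± 0.31, adjusted p = 0.016), Rrs1 (−1.71 ± 0.51, adjusted p = 0.0296), Nop10 and Nop16 were called here and not in tumor against control, and Nop14 (−1.29 ± 0.43, adjusted p = 0.0503) the reverse. Whether these changes differ between the comparisons was not tested. Only Rcl1 was higher in regression than in tumor by its mean (0.29 ± 0.47, adjusted p = 0.817).

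The other pathway lists differed in how many genes fell in regression against tumor, where 8.46% of all genes did. Further RNA polymerase I subunits and factors fell in 7 of 13 cases, RNA polymerase III genes in 2 of 19 and small nucleolar particle assembly factors in 5 of 9. The further small subunit factors fell in 18 of 39 cases and rose in 1, the further large subunit factors fell in 27 of 47, the exosome in 6 of 13 and ribosomal proteins in 57 of 75. The genes that led these lists in tumor against control had differences of −1.83 ± 0.35 (Polr2e), −2.06 ± 0.40 (Gtf3a), −2.75 ± 0.30 (Ruvbl2), −2.77 ± 0.38 (Exosc7) and −3.50 ± 0.39 (Rpl14). The gene that rose was Krr1, a small subunit processome factor, named after its values were seen. It read −0.32, −0.80 and −1.07 on control, −0.31, −0.58, −0.14 and −0.26 on pre-tumor, 0.64, 0.70, −0.89 and 0.93 on tumor and 2.57, 1.44, 1.12 and 1.45 on regression arrays, and every regression array lay above every other. Krr1 was higher in regression than in tumor by 1.30 ± 0.41 (adjusted p = 0.0407) and than in control by 2.38 ± 0.45 (adjusted p = 0.00277).

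**Figure D5:**
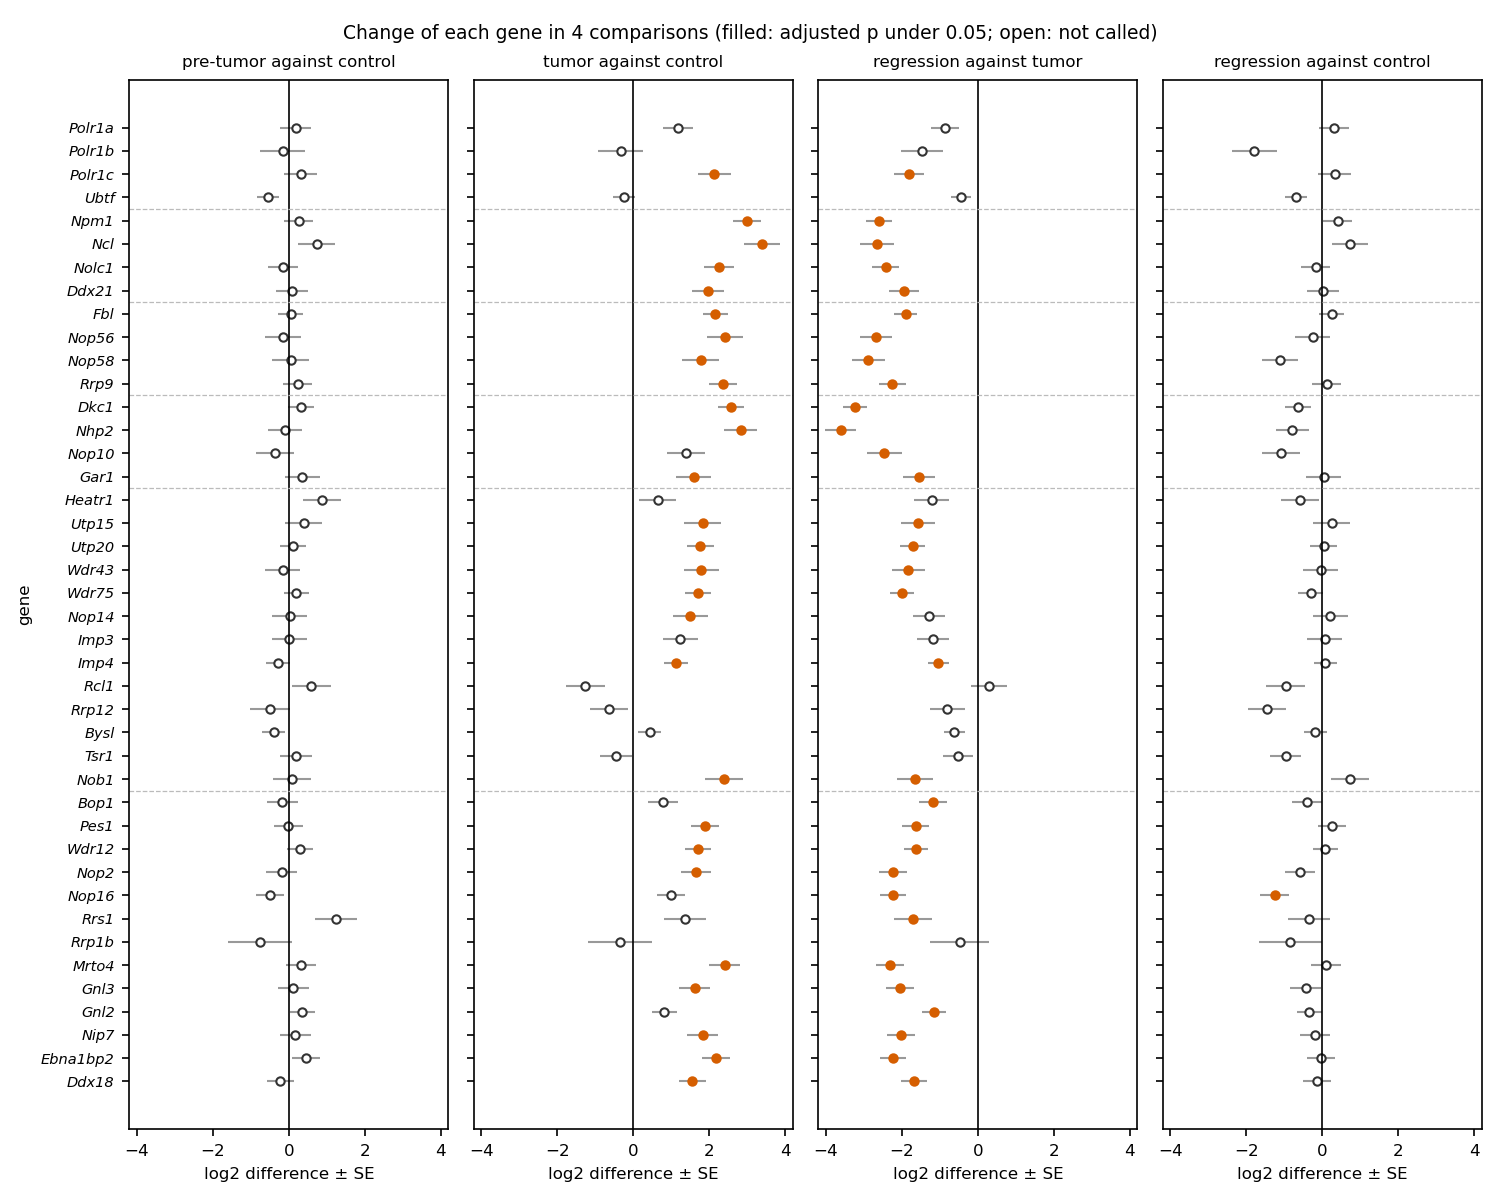
Each panel gives the log2 difference ± SE of each of the 42 genes in 1 of 4 comparisons, with filled points for an adjusted p under 0.05. Filled points lie to the right of 0 in tumor against control (27 genes) and to the left in regression against tumor (31 genes), with 0 in pre-tumor against control and 1, Nop16, in regression against control.

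Set against control liver, the regressing tumors had 1 of 42 genes lower and 0 higher. Of all genes tested 3.31% were lower and 5.03% higher. The median difference of the members was −0.18, against −0.25 for all genes, and 0.12 with the arrays centred on their medians. In 6 of 42 genes every regression array lay below every control array, against 15.2% of all genes, and in 0 above, against 10.2%. At an unadjusted p under 0.05, 7 members were lower (14.7% of all genes) and 0 higher (10.1%). The slides gave members' medians of 0.58, −0.59 and −0.64, so the sign was not the same within slides. The gene called was Nop16, a large subunit factor, which read −0.34, −0.55 and 0.08 on control, −0.38, −1.07, −0.46 and −1.18 on pre-tumor, 0.69, 0.31, 1.06 and 0.78 on tumor and −1.52, −0.83, −1.56 and −2.20 on regression arrays. Its regression arrays lay below every control array, and it differed by −1.26 ± 0.37 (adjusted p = 0.0459). This call held under 7 of 27 alternatives, and the highest adjusted p among them was 0.543. It ended when control 1, 2 or 3, pre-tumor 1 or 2, tumor 1, 2 or 4, or regression 1, 3 or 4 was left out, and 2 members were lower without tumor 3. The other Nop16 probe gave −0.21 ± 0.47. Polr1b, Rrp12, Nop58, Nop10 and Ubtf also had no overlap, with differences of −1.79 ± 0.59, −1.46 ± 0.5, −1.11 ± 0.48, −1.08 ± 0.50 and −0.70 ± 0.29 and adjusted p-values from 0.0744 to 0.191. The other Ubtf probe did overlap, at 0.46, 0.46, −0.13 and −0.06 on regression arrays against 1, −0.22 and 0.38 on control. Polr1b was well above background on 3 of 4 regression arrays. A difference that was not called may still be large: for 32 of 42 genes the 95% interval excluded a rise of 1 on the log2 scale, but for 10 it lay within 1 on both sides of 0. Npm1, for example, had an interval of −0.41 to 1.20, and Ncl of −0.28 to 1.75.

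In pre-tumor liver against control liver none of the 42 genes was called by limma in either direction, each with an adjusted p of 1, and 0% of all genes were higher and 0% lower. The median difference of the members was 0.08, against −0.04 for all genes, with 26 positive. It was −0.01 under normexp and 0.42 without the 4 arrays of high E1A signal. At an unadjusted p under 0.05, 1 member was higher (1.99% of all genes) and 0 lower (0.621%). The groups did not overlap upward in 0 members (1.89% of all genes) and downward in 1 (0.957%). Rrs1, which brings a ribosomal RNA particle into the large subunit, was the gene at unadjusted p = 0.038. It read 1.92, 1.61 and 0.83 on control, 3.18, 1.55, 3.96 and 2.13 on pre-tumor, 3.06, 2.98, 1.68 and 3.56 on tumor and 1.41, 1.33, 0.57 and 1.12 on regression arrays. The pre-tumor arrays 1 and 3 were as high as the tumors, and pre-tumor 2 was within the control range. Its difference of 1.25 ± 0.55 had a 95% interval of 0.08 to 2.42. Heatr1 had the next highest difference, 0.87 ± 0.49, its pre-tumor arrays reading 0.89, −0.15, 1.96 and 0.47 against 0.22, −0.28 and −0.17 on control. The other Heatr1 probes did not show this. A_52_P20482 read 0.09, −0.29, −0.49 and −0.13 on pre-tumor and −0.27, 0.21 and −0.43 on control arrays. A_51_P122614 read −2.24, −3, −2.81 and −2.43 on pre-tumor and −2.16, −2.96 and −2.6 on control arrays. Ubtf was the gene without overlap, lower by −0.56 ± 0.29 on the log2 scale in the values given above (95% interval −1.18 to 0.07). Its other probe did overlap, reading 1, −0.22 and 0.38 on control arrays and 0.16, −0.04 and 0.69 on pre-tumor 1, 2 and 3. By limma's unadjusted p Ubtf, and not Heatr1, came next after Rrs1. Myc probe A_52_P108346 differed by 2.06 ± 0.54 between the same groups (adjusted p = 0.869). Over the members, 19 of 42 intervals excluded a rise of 1 on the log2 scale and 9 lay within 1 on both sides of 0. The slides gave members' medians of −0.16, −0.26 and 0.49, again without a common sign.

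Tumor nodules against pre-tumor liver had 29 of 42 genes higher, 1 lower and 12 not called. Of all genes tested 10% were higher and 9.1% lower. The median difference was 1.58, against −0.13 for all genes, and within the 4 slides it was 2.09, 1.43, 1.64 and 1.45. Without the 4 arrays of high E1A signal, 11 were higher and 0 lower, with a median of 1.31. Only pre-tumor 2 and pre-tumor 3 were then left of their group, and the calls over all genes went from 1941 higher and 1759 lower to 1011 and 1480. In 30 of 42 genes all tumor arrays lay above all pre-tumor arrays (11.6% of all genes) and in 0 below (9.46%). The tumor arrays are those compared with control. Nhp2 (2.92 ± 0.40, adjusted p = 7.4e-05), Npm1 (2.73 ± 0.35, adjusted p = 3.86e-05) and Ncl (2.66 ± 0.44, adjusted p = 0.000398) had the largest differences on the probes used. Nop10 (1.75 ± 0.46, adjusted p = 0.0121), Nop16 (1.48 ± 0.34, adjusted p = 0.00503) and Bysl (0.84 ± 0.28, adjusted p = 0.048) were called here but not against control, and Gar1 (1.23 ± 0.43, adjusted p = 0.0574) the reverse. The calls of Nop10 and Nop16 each held in 26 of 27 alternatives and that of Bysl in 6, with a highest adjusted p of 0.303. The other Nop16 probe was not called in this comparison, nor in regression against tumor. The dimmer Polr1a probe, unlike the probe used, was called higher in tumor than in pre-tumor. The differences between these comparisons were not tested. Rcl1 was the gene that fell, by −1.85 ± 0.47 or 3.59-fold (adjusted p = 0.0104), with pre-tumor 2 at 2.63 inside the tumor range of 2.30 to 2.72. Its call ended without the 4 arrays of high E1A signal (Rcl1, tumor against pre-tumor: −1.48 ± 0.64, adjusted p = 0.178). Rrs1 and Heatr1 had the highest differences between pre-tumor and control liver, Heatr1 only on the probe used. Between tumor and pre-tumor they differed by 0.12 ± 0.51 and −0.23 ± 0.45. Rrp12, with pre-tumor 4 left out for a flagged spot, differed by −0.16 ± 0.50, and Gnl2, a nucleolar GTPase of the large subunit pathway, by 0.46 ± 0.31.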

How the data were processed

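RNA from 15 liver and liver tumor samples was extracted with the mirVana kit, amplified, labelled with Cy3 and measured on Agilent 4x44K mouse arrays, per the labels' protocols. Images were read with Feature Extraction 10.5.1.1, per the file headers. The processed signal in these files is an intensity on a linear scale, background-subtracted by the scanner software per the file headers and not normalized between arrays. A normalized table deposited by the authors is on the log2 scale, and its method is not given in the sources used here. It supplied the gene symbols and an alternative.

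From the intensities log2 values were taken and each array's 75th percentile subtracted. Spots flagged as outliers were left out and spots of a probe averaged. Probes well above background on at least 3 of 15 arrays were kept (29877 with a symbol, of 34908), and no spot was saturated. A gene has the passing probe with the highest mean. Of 72 member probes 70 passed. Symbols were updated through Entrez IDs. limma 3.58.1 in R 4.3.3 fitted 1 model for 4 groups (11 residual degrees of freedom, 5 comparisons), and p-values were two-sided and adjusted by Benjamini-Hochberg over 19335 genes. The code was tested on simulated data. Values by array are given for 2 to 4 genes of each role with the lowest adjusted p in tumor against control, for genes called opposite to most of their role in any comparison, for those called against control in regression, and for the lowest p-values in pre-tumor. In other lists at most 3 genes are named by that order. The members and lists were chosen with earlier results of these data known. Alternatives were normexp, quantile and median scaling, the authors' table, 2 other filters, the mean of probes, slide and replicate blocks, a fit of the compared groups alone, a robust trended variance, and arrays left out. The normexp alternative used median spot signals, since mean signals are not in the files used here. It added an offset of 50, and the median processed signal of an array ran from 6.78 (tumor 3) to 71.3 (pre-tumor 4). The part of this offset in the values under normexp was not tested.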

Additional observations from a re-analysis of the deposited data

Results flagged for a closer look

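Single arrays stood apart from their own group in 4 of 125 gene and group combinations (3.2%), where the gap to the nearest array took up more of the group's range than Dixon's 95% limit. Chance gives about 1 in 20. Nhp2 on tumor 3 read 4.81, with the next tumor at 3.84. Ddx18 on tumor 4 read 2.40, against 1.90 for the nearest. On regression 3, Polr1b read −3.85 and the nearest array −2.66, and Polr1b was well above background on 3 of the 4 regression arrays. Dkc1 on regression 1 read −3.21, with the others at −3.80 or lower, and 2 of the 4 were well above background.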

How the results depend on the processing

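Over 27 alternatives, 18 of the 27 calls in tumor against control, 10 of 30 in tumor against pre-tumor, 22 of 31 in regression against tumor and 0 of 1 in regression against control held throughout, and all of them kept their sign. The count higher in tumor against control ran from 21 (normexp) to 31 (replicate block). Without the 4 arrays of high E1A signal, tumor against pre-tumor had 11 higher and 0 lower, with 1011 higher and 1480 lower over all genes. Members lower in regression against control numbered 0 under normexp, quantile and median scaling, the authors' table, no filter, the mean of probes, the slide block, only the 2 groups compared and without the high-E1A arrays. Leaving out 1 array at a time gave 22 to 29 higher and 0 to 1 lower in tumor against control (1 without pre-tumor 2), 26 to 30 higher in tumor against pre-tumor, 25 to 34 lower in regression against tumor and 0 to 2 lower in regression against control. The cause was not tested. With the mean of probes, the value for Rrp1b, tumor against control turned to 1.82 (adjusted p = 0.000302), by construction from 3 probes that rose and 1 that did not. With the replicate block, 31 members were higher in tumor against control, 31 higher and 1 lower against pre-tumor, 33 lower in regression against tumor and 3 lower in regression against control. Samples of 1 number deviated together in 11 of 21 pairs (r over 0.1, median 0.12, range −0.44 to 0.61). Samples of different numbers did so in 16 of 63 pairs (median −0.04, range −0.62 to 0.54). The labels do not say that the numbers pair samples, and these overlapping ranges cannot decide it. Scaling moved the median difference of all genes in tumor against control from −0.18 to 0 (normexp) and 0.14 (median centring). The split of all calls higher and lower moved with it, from 1809 and 1353 to 1960 and 896 with median centring, and in tumor against pre-tumor from 1941 and 1759 to 1966 and 1165. Under normexp it moved from 1617 and 1636 to 228 and 1159 in regression against tumor and from 972 and 640 to 181 and 434 in regression against control, where median centring gave 1116 and 433. Members dim in 1 group (Dkc1, Polr1a, Polr1b, Utp15) have levels near background there.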
